A study of Mus musculus with 6 samples.

Results

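Fatty acid oxidation and ketone body metabolism were examined in the livers of SRC-2 null mice through 31 genes. They were taken by gene symbol from the annotation of the array, with no threshold on measured values, and they cover mitochondrial and peroxisomal beta-oxidation, ketone bodies and the regulator Ppara. The array held 59 probe sets listed for exactly these genes, of 34945 probe sets with a single gene, and the 31 genes stood among 18193 genes in all. RNA from the liver of female mice on a C57 background was compared between 3 wild-type and 3 SRC-2 null samples, with 1 array each. Every mouse, controls included, lost its ovaries at 6 weeks of age, and the livers were taken under Avertin anaesthesia 2 weeks later. SRC-2 is the nuclear receptor coactivator encoded by Ncoa2, and the labels do not describe the null allele, the time of day or the feeding state. Values are log2 expression levels, so a difference of 1 is a doubling, and differences are always SRC-2 null minus wild-type. Each gene is represented by its brightest probe set unless another is named, and all 31 genes passed the filter on dim genes.

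Fatty acids are burned in mitochondria after they have been linked to coenzyme A and carried across the membranes as carnitine esters. Each round of beta-oxidation then runs through an acyl-CoA dehydrogenase, a hydratase, a second dehydrogenase and a thiolase, and passes electrons to the electron transfer flavoprotein. Very long and branched chains are shortened first in peroxisomes. In the fasting liver the acetyl-CoA so formed is turned into ketone bodies, which are exported to other organs. PPAR-alpha, the nuclear receptor made from Ppara, switches on much of this programme when fatty acids reach the liver.

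Ncoa2 fell 5.41-fold in null liver by its brightest probe set (log2 difference -2.44, SE 0.20, limma adjusted p = 0.000353), with null arrays between 5.44 and 5.86 and wild-type arrays between 7.74 and 8.53. Of its 3 other probe sets 1 also passed (log2 difference -2.16), and 2 dim ones did not (-0.27 and 0.07), so that the mean of all 4 differed by -1.20 and passed. Which part of the gene was deleted is not in the labels. Of 11 hepatocyte markers none passed the test in limma, where 4.67% of all genes did. An unadjusted p under 0.05 was found for 0 of them, beside 17.2% of all genes. The mean level of these markers was 13.3 on every array. Of 17 macrophage markers 15 passed the test as lower in null liver, where 3.13% of all genes did, and all 17 were lower without overlap. Their mean log2 level was 7.85 to 7.93 on the wild-type and 6.88 to 6.89 on the null arrays. B and plasma cell markers were also lower, with 3 of 5 called and a median log2 difference of -1.38, as were immediate early genes, with 8 of 13 called and a median of -0.81. The part of these shifts in the values of the oxidation genes was not tested. In a bulk sample fewer cells of a type and less RNA per cell cannot be told apart. The labels do not say that the 3 samples of a genotype came from separate animals, so the p-values reflect only how far these samples spread, and that spread may be technical. Replicate 3 of both genotypes stood apart from replicates 1 and 2, as described below for the oxidation genes.

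None of the 31 oxidation and ketone body genes passed the test between the genotypes, where 4.67% of all 11894 genes tested did. Their differences were small and lay mostly above 0. In limma the lowest adjusted p was 0.0528, for Cpt2. Of the 31 genes, 8 had a limma unadjusted p under 0.05 with a higher level in null liver, where 7.58% of all genes did. A further 2 had one with a lower level, where 9.58% of all genes did. Log2 differences ran from -0.26 for Bdh1 to 0.43 for Cpt1a, with a median of 0.13 beside 0.0026 over all genes tested. The 95% intervals, which are not adjusted for the number of genes, reached at most from 1.37-fold lower (Bdh1) to 1.59-fold higher (Cpt1a). No interval of the 31 therefore held a 2-fold change in either direction. With the replicate number as a block, Cpt1a (adjusted p = 0.0296) and Cpt2 (adjusted p = 0.0449) passed as higher, against 2.58% of all genes called higher in that fit, and no gene of the 31 passed as lower. With replicate 3 as a term, Cpt1a (adjusted p = 0.0145), Cpt2 (0.0329) and Acaa1a (0.0375) passed as higher, where 3.15% of all genes were called higher and 8.26% in either direction.

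The direction was shared by most of the genes. In 24 of the 31 genes (77.4%) the null mean was above the wild-type mean, beside 50.6% of all genes tested. For 16 genes (51.6%) all 3 null arrays read above all 3 wild-type arrays, where 10.8% of all genes tested did. For 5 genes (16.1%), namely Ppara, Eci2, Acaa1b, Bdh1 and Oxct1, all null arrays read below, where 12.5% of all genes did. Most of these genes are bright, with 23 of the 31 at a mean of 10 or more. Among the 723 tested genes that bright, 53.8% had a difference above 0, 21% did not overlap with the null arrays higher and 24.6% did not overlap with them lower.

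**Figure D1:**
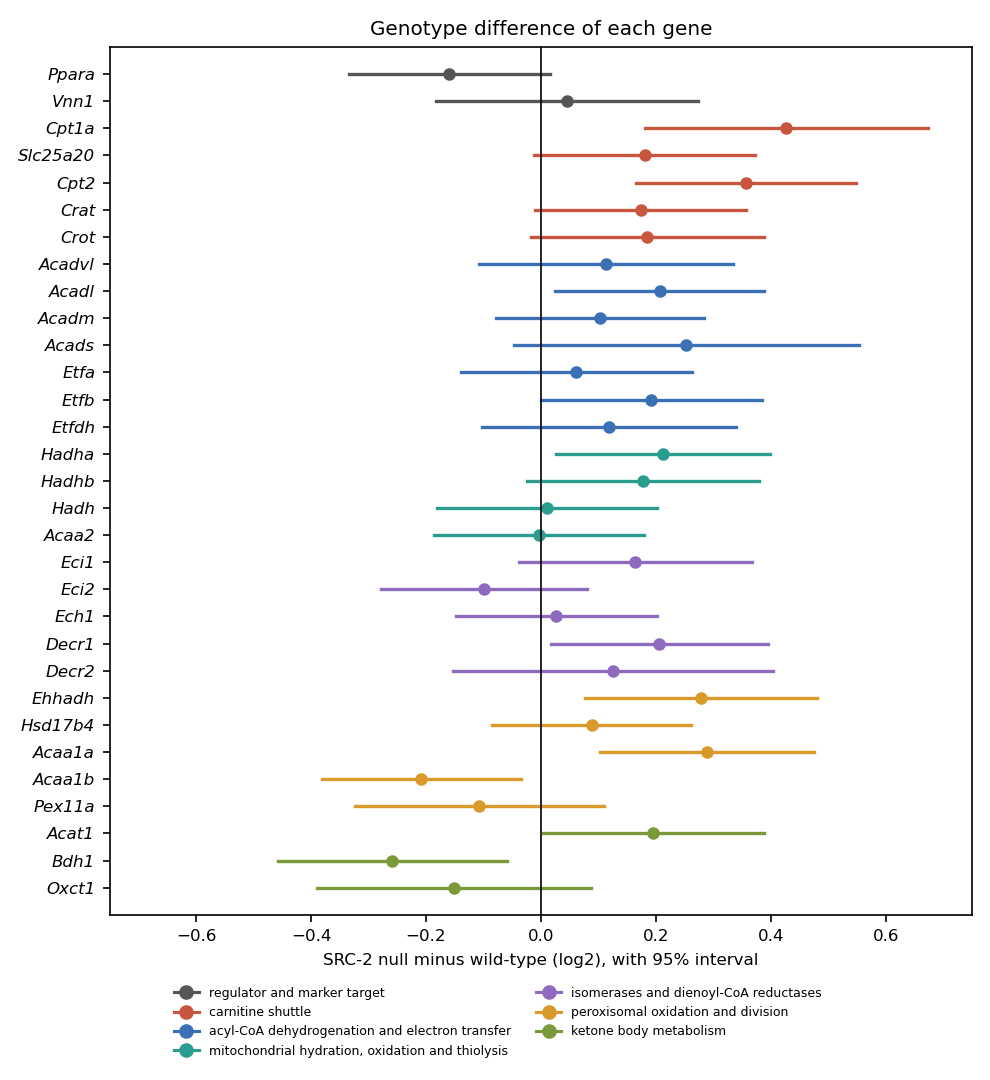
Difference between SRC-2 null and wild-type liver (log2, horizontal axis) for each of the 31 genes, coloured by role, with the 95% interval of the limma fit (3 arrays a genotype). The points run from -0.26 (Bdh1) to 0.43 (Cpt1a), and all 5 carnitine shuttle genes and all 7 genes of acyl-CoA dehydrogenation and electron transfer lie above 0.

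Ppara, the gene of the receptor itself, read 9.45, 9.36 and 9.41 on the wild-type arrays and 9.23, 9.25 and 9.26 on the null arrays. The groups did not overlap, with the null arrays lower. The log2 difference was -0.16 (SE 0.076, 95% interval -0.33 to 0.02) and did not pass the test (limma adjusted p = 0.339). Its 2 other probe sets had log2 differences of -0.26 and -0.36, neither of which passed and both of which had overlapping groups. Vnn1, which encodes a pantetheinase that recycles the vitamin part of coenzyme A and is a classic PPAR-alpha target, had a log2 difference of 0.05 (adjusted p = 0.875). Its wild-type arrays read 9.54 to 9.73 and its null arrays 9.52 to 9.77.

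The 2 largest differences were in genes of the carnitine shuttle. Cpt1a, the outer-membrane carnitine palmitoyltransferase that sets the rate of entry into mitochondria, read 10.87, 10.86 and 10.75 in wild-type and 11.34, 11.37 and 11.05 in null liver. Every null array was above every wild-type array, and null replicate 3 was the lowest of its group. The difference was 1.34-fold (log2 difference 0.43, SE 0.11, 95% interval 0.18 to 0.67) with a limma adjusted p of 0.0678. Without null replicate 3 it was 0.53 and passed (adjusted p = 0.0267). Among replicates 1 and 2 alone it was 0.49 and passed as well (adjusted p = 0.0460). It did not pass when any other single array was left out (adjusted p from 0.141 to 0.219). Within replicate 3 it was 0.30. Both other Cpt1a probe sets, whose names mark them as able to detect related transcripts, were also higher without overlap, with log2 differences of 0.47 and 0.54.

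Cpt2 makes the inner-membrane enzyme that turns carnitine esters back into acyl-CoA. Its wild-type arrays read 10.33, 10.34 and 10.34, and its null arrays 10.59, 10.78 and 10.71. The wild-type arrays were almost equal and all null arrays lay above them. The difference was 1.28-fold (log2 difference 0.36, SE 0.083, 95% interval 0.16 to 0.55), just short of the threshold in limma (adjusted p = 0.0528), and it was 0.37 within replicate 3.

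The remaining shuttle genes had smaller differences in the same direction. Slc25a20, the carnitine-acylcarnitine exchanger of the inner membrane, read 10.31, 10.34 and 10.45 in wild-type and 10.54, 10.48 and 10.62 in null liver. Its log2 difference was 0.18 (adjusted p = 0.326). Crat and Crot, the carnitine transferases for acetyl groups and for medium-chain groups made in peroxisomes, had log2 differences of 0.17 and 0.19 (adjusted p = 0.322 and 0.339). By their brightest probe sets, all 5 shuttle genes had null arrays above the wild-type arrays without overlap, where 10.8% of all genes tested did. The other Slc25a20 probe set was also higher without overlap (log2 difference 0.29). The other Crat probe sets had overlapping groups, with log2 differences of 0.09 and 0.15. With all its probe sets averaged, Crot had a log2 difference of 0.020, and its other probe set was below the filter.

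The promoters of the Cpt1a and Cpt2 genes are shown because these genes had the largest differences. They span 250 bases before and 50 bases after the annotated start, from RefSeq (GRCm38.p6), and capitals mark the GC box GGGCGG and the CCAAT box on either strand. The windows are chr19:3323051-3323350 on the plus strand for Cpt1a and chr4:107923540-107923839 on the minus strand for Cpt2. The genome build behind the array annotation is not given in the sources used here. Each holds 3 GC boxes, and Cpt1a also holds 1 CCAAT box.
Cpt1a: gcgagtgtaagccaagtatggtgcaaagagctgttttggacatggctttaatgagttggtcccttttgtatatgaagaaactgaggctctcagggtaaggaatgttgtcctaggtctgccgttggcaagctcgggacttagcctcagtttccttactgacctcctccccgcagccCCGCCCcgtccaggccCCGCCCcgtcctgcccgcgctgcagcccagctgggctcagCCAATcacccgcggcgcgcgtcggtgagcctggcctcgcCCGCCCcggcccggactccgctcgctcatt
Cpt2: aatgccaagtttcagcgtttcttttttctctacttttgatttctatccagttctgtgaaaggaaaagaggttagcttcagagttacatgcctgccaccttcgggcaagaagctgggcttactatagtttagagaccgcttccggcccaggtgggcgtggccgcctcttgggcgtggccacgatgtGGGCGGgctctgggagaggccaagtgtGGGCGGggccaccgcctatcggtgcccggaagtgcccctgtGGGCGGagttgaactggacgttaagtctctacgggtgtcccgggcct

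**Figure D2:**
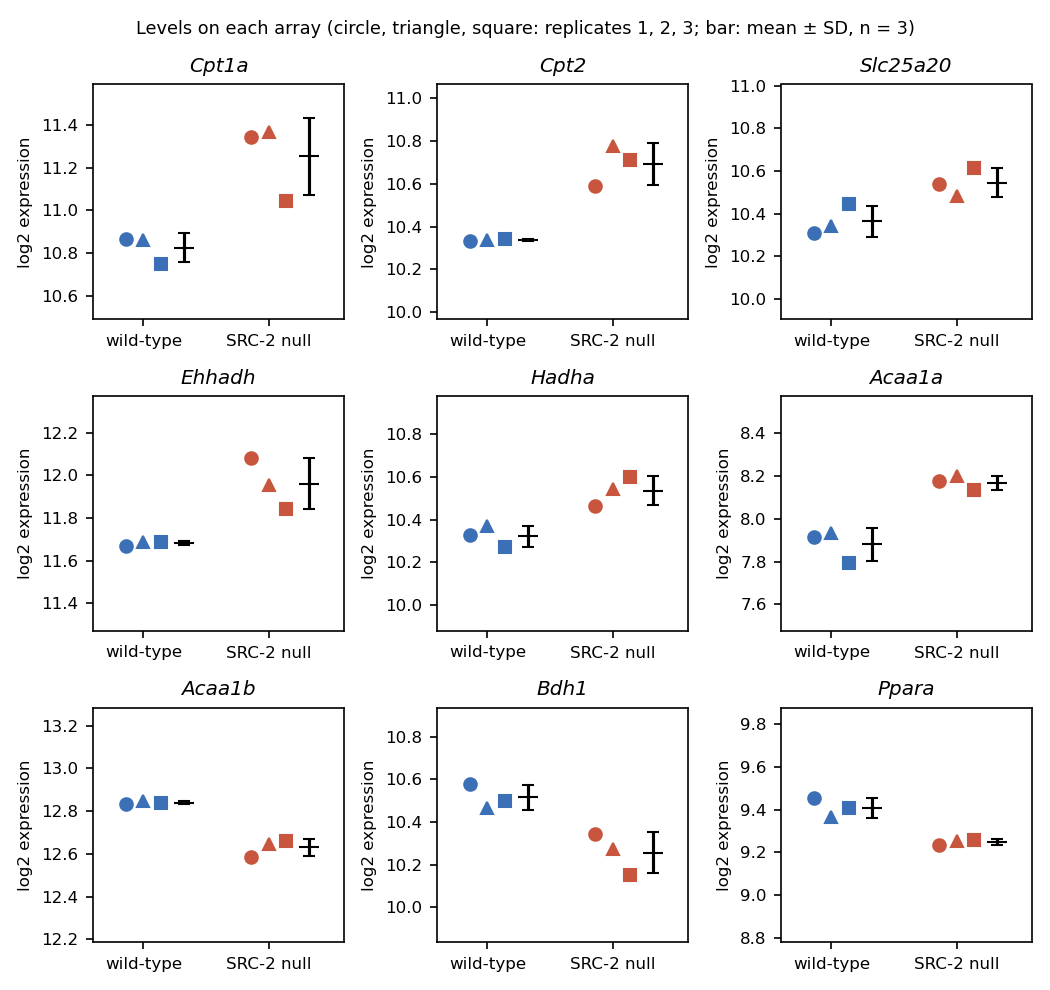
Log2 expression (vertical axis, the same span of 1.1 in every panel) of 9 genes on each array, with wild-type in blue, SRC-2 null in red and replicates 1, 2 and 3 as circle, triangle and square. Bars give the mean ± SD of 3 arrays. The panels show only genes whose groups do not overlap, and 10 of the 31 genes had overlapping groups. Over all genes tested, 10.8% were higher and 12.5% lower without overlap. Null replicate 3 of Cpt1a, at 11.05, is nearest to the wild-type arrays.

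All 7 genes of acyl-CoA dehydrogenation and electron transfer had log2 differences above 0, between 0.06 and 0.25, and none passed. The acyl-CoA dehydrogenases take fatty acids of successive chain lengths. Acadl, for long chains, read 10.54, 10.46 and 10.58 in wild-type and 10.71, 10.71 and 10.78 in null liver, without overlap (log2 difference 0.21, SE 0.079, limma adjusted p = 0.230). Acadm, for medium chains, was also without overlap, at a log2 difference of 0.10 (adjusted p = 0.581). Acads, for short chains, had the largest difference of this group at 0.25 (SE 0.13, adjusted p = 0.382), and its groups overlapped. Its arrays read 8.71, 8.85 and 9.06 in wild-type and 8.94, 9.09 and 9.34 in null liver, so replicate 3 was the highest in each genotype. Acadvl, for very long chains, had a log2 difference of 0.11 (adjusted p = 0.625), with null replicate 2 at 11.60 and the other null arrays at 11.32 and 11.38.

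Electrons from these enzymes pass to the electron transfer flavoprotein, made of the subunits encoded by Etfa and Etfb, and on to the quinone pool through the product of Etfdh. Etfb had a log2 difference of 0.19 without overlap, with wild-type arrays at 11.41 to 11.49 and null arrays at 11.54 to 11.71 (adjusted p = 0.294). Etfa and Etfdh had overlapping groups and log2 differences of 0.06 and 0.12 (adjusted p = 0.790 and 0.606). When all probe sets of a gene were averaged, Etfdh had a log2 difference of -0.0054, and its other probe set has a mean level of 2.57, below the filter.

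None of the 4 genes of the last steps of the mitochondrial round passed. Hadha and Hadhb encode the subunits of the trifunctional protein, which carries out these steps on long chains. Hadha read 10.33, 10.37 and 10.27 in wild-type and 10.46, 10.54 and 10.60 in null liver, a 1.16-fold difference without overlap (log2 difference 0.21, 95% interval 0.03 to 0.40, adjusted p = 0.226). Hadhb read 11.04, 11.07 and 10.89 in wild-type and 11.17, 11.25 and 11.12 in null liver, again without overlap (log2 difference 0.18, adjusted p = 0.358). A further Hadhb probe set had a log2 difference of 0.40 and a limma adjusted p of 0.0740 among single-gene probe sets, the lowest of all the probe sets of the 31 genes. The name of that probe set ends in _x_at, so it can also detect related transcripts.

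Hadh and Acaa2, the dehydrogenase and the thiolase that act on shorter chains, had differences close to 0. Hadh had a log2 difference of 0.01 (95% interval -0.18 to 0.20) and Acaa2 one of -0.0031 (95% interval -0.19 to 0.18). These intervals leave room for null levels of 0.88 to 1.15 times the wild-type level for Hadh and 0.88 to 1.13 times for Acaa2. Whether this pair differed from Hadha and Hadhb in its response was not tested.

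Hadha and Hadhb lie head to head, and their promoter windows share 228 bases, which is why the Hadhb window is shown. It is chr5:30155003-30155302 on the plus strand (RefSeq, GRCm38.p6), with the capitals as above, and holds 4 GC boxes and no CCAAT box.
Hadhb: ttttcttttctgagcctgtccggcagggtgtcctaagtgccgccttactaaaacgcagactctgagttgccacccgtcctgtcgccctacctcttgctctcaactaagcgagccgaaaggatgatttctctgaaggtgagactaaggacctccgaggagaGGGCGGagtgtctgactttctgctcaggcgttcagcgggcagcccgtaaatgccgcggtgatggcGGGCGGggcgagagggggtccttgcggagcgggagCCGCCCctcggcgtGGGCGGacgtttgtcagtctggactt

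The auxiliary enzymes that deal with double bonds were mixed. Decr1, the mitochondrial dienoyl-CoA reductase, read 10.72, 10.73 and 10.84 in wild-type and 10.95, 10.92 and 11.03 in null liver, without overlap (log2 difference 0.21, SE 0.082, limma adjusted p = 0.247). The other Decr1 probe set, with a mean level of 7.83, had a log2 difference of 0.04 and overlapping groups. Eci1, the mitochondrial enoyl-CoA isomerase, was higher without overlap, at 0.16 (adjusted p = 0.405). Eci2, an isomerase found in mitochondria and peroxisomes, was lower without overlap, at -0.10 (adjusted p = 0.596). Ech1, which moves pairs of double bonds, and Decr2, the peroxisomal reductase, had overlapping groups and log2 differences of 0.03 and 0.13.

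The peroxisomal genes went in both directions. Ehhadh, the bifunctional enzyme of the inducible pathway, read 11.67, 11.69 and 11.69 in wild-type and 12.08, 11.96 and 11.84 in null liver. The null arrays were all higher but spread over a wider range than the wild-type arrays, and the difference was 1.21-fold (log2 difference 0.28, SE 0.088, limma adjusted p = 0.145). It was 0.34 among replicates 1 and 2 and 0.16 within replicate 3. Hsd17b4, the bifunctional enzyme for branched chains, had a log2 difference of 0.09 without overlap (adjusted p = 0.628). Pex11a, a factor of peroxisome division, had one of -0.11 with overlapping groups (adjusted p = 0.639).

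The peroxisomal thiolase genes Acaa1a and Acaa1b differed in opposite directions. Acaa1a read 7.92, 7.93 and 7.79 in wild-type and 8.18, 8.20 and 8.13 in null liver, higher without overlap (log2 difference 0.29, SE 0.081, limma adjusted p = 0.0996). The other Acaa1a probe set had a log2 difference of 0.25 and overlapping groups. Acaa1b read 12.83, 12.85 and 12.84 in wild-type and 12.59, 12.64 and 12.66 in null liver, lower without overlap (log2 difference -0.21, SE 0.075, adjusted p = 0.204). Neither passed the test. The difference between these differences was 0.50 on the log2 scale, and an exact two-sided permutation test gave p = 0.1, the smallest that 3 against 3 arrays allow. This pair was chosen after its values were seen. Because Acaa1a was higher and Acaa1b lower, both without overlap, this p was fixed in advance and adds no support. Both Acaa1a probe sets end in _x_at and can also detect related transcripts, and 2 further probe sets listed for several genes were left out, so the share of each gene in these signals is uncertain.

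The promoters of this pair, both on chromosome 9, are shown because the genes are close relatives with opposite differences. Acaa1a is shown at chr9:119341044-119341343 on the plus strand and Acaa1b at chr9:119157044-119157343 on the minus strand (RefSeq, GRCm38.p6), with the capitals as above. The Acaa1a window has 3 GC boxes and 4 CCAAT boxes. The Acaa1b window has 0 GC boxes and 4 CCAAT boxes, counting an overlapping pair on opposite strands in CCAATTGG. Its G and C content is lower, 43.67% against 53.33%.
Acaa1a: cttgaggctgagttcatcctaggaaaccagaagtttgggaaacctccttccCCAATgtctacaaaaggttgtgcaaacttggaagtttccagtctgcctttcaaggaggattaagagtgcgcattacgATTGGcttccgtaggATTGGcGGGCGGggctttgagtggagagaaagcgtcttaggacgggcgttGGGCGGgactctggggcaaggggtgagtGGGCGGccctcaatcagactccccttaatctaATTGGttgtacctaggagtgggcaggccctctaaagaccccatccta
Acaa1b: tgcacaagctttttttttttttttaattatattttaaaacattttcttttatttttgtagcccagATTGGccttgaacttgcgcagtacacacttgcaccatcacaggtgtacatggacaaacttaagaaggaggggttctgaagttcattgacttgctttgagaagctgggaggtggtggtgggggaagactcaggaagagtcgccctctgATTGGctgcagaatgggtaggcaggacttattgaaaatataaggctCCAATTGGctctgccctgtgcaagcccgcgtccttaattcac

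Ketone body genes were split as well. Acat1, the mitochondrial thiolase that joins acetyl groups at the start of the pathway, read 11.16, 11.14 and 11.11 in wild-type and 11.41, 11.36 and 11.23 in null liver. The null arrays were higher without overlap, and the log2 difference was 0.20 (SE 0.084, limma adjusted p = 0.282). Bdh1, which interconverts acetoacetate and beta-hydroxybutyrate, read 10.58, 10.47 and 10.50 in wild-type and 10.34, 10.27 and 10.15 in null liver. It was lower without overlap and had the largest negative difference of the 31 genes, 1.20-fold (log2 difference -0.26, SE 0.087, 95% interval -0.46 to -0.06), but did not pass (adjusted p = 0.170). The difference between the Acat1 and Bdh1 differences was 0.45 on the log2 scale, with an exact two-sided permutation p of 0.1, again the smallest possible, for a pair chosen after its values were seen. Adjusted over both pairs tested in this way, the p-values stay at 0.1. As Acat1 was higher and Bdh1 lower, both without overlap, this p was also fixed in advance and adds no support.

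Oxct1 makes the enzyme that lets other tissues use ketone bodies, and hepatocytes are known to lack it. Its brightest probe set read 5.52, 5.51 and 5.52 in wild-type and 5.15, 5.46 and 5.47 in null liver. The null arrays were lower without overlap, with null replicate 1 well below the others (log2 difference -0.15, SE 0.10, limma adjusted p = 0.536). Macrophage markers were lower in the same arrays, with a median log2 difference of -0.97, and their part in the Oxct1 value was not tested.

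Of the 59 probe sets, 53 passed the filter on dim values, and 15 genes had several that did. None of the 53 passed the test, where 2.41% of all single-gene probe sets did. Of the 53, 14 had an unadjusted p under 0.05 in limma, a larger share than the 14% of all single-gene probe sets. In 13 of the 15 genes all probe sets differed in the same direction. The exceptions were Acaa2, whose 3 probe sets all lay within 0.05 of 0, and Hadhb, where the dimmest probe set had a log2 difference of -0.14 against 0.18 and 0.40. The 3 Ppara probe sets were all lower, and those of Cpt1a and of Acat1 were all higher. Across the 53 probe sets, 39 had a difference above 0, where 51% of all single-gene probe sets did. Without overlap 22 of the 53 were higher and 5 of the 53 lower, beside 9.48% and 10.8% of all.

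**Figure D3:**
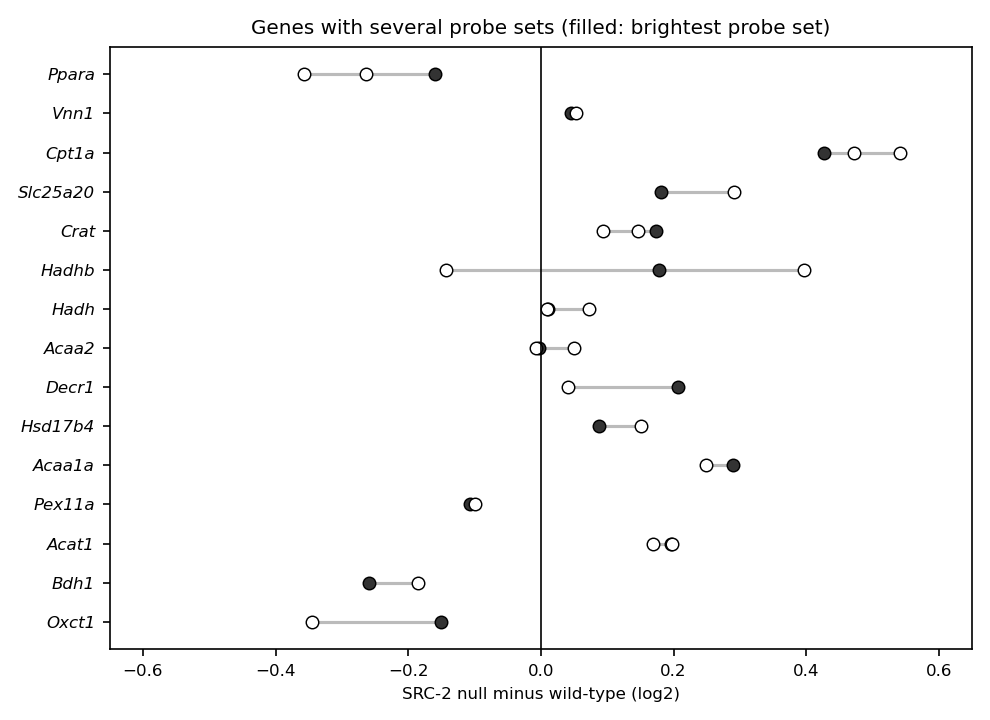
Log2 difference of SRC-2 null minus wild-type (horizontal axis) for every probe set above the filter in the 15 genes that had several. Filled points are the brightest probe set of the gene and open points the others. In 13 genes all points lie on one side of 0, and Hadhb spans from -0.14 to 0.40.

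The oxidation genes also varied with the replicate number. Replicate 3 was the lowest array of both genotypes for 12 of the 31 genes (38.7%) and the highest of both for 6 (19.4%). Over all genes tested these shares were 12.8% and 33.7%. Decr2 had the largest such drop, with wild-type replicate 3 lower by a log2 difference of -0.22 and null replicate 3 by -0.33 against the mean of replicates 1 and 2. Acads had the largest rise, 0.28 in wild-type and 0.32 in null liver. For Cpt1a the values were -0.12 and -0.31. What sets replicate 3 apart is not in the labels. Between the genotypes, 23 of 31 genes lay above 0 within replicates 1 and 2 (median 0.14) and 25 of 31 within replicate 3 (median 0.10).

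**Figure D4:**
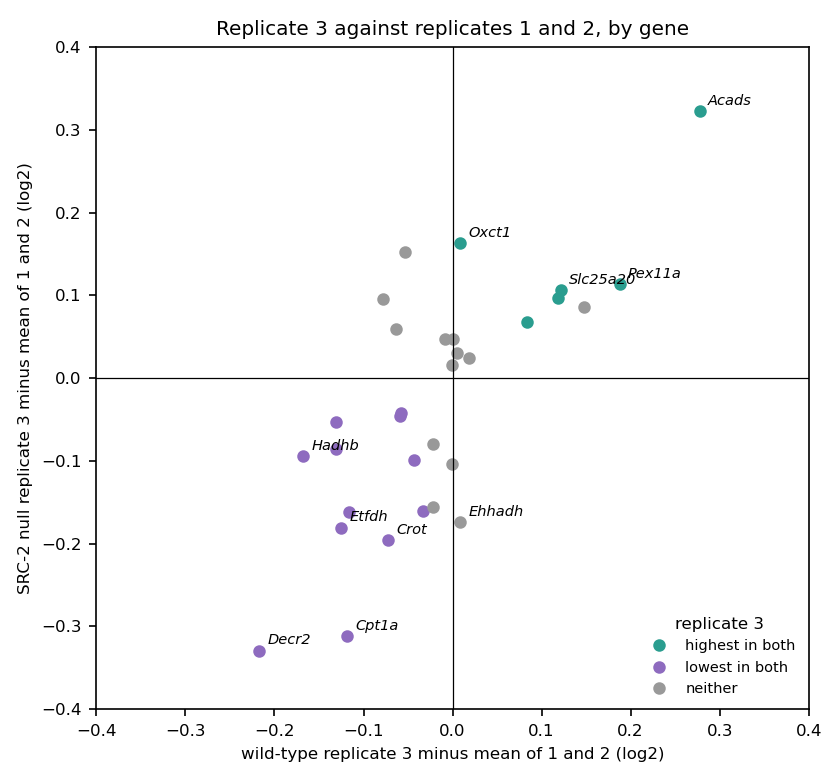
Log2 level in replicate 3 minus the mean of replicates 1 and 2, in wild-type (horizontal axis) and in SRC-2 null liver (vertical axis), with 1 point for each of the 31 genes. The 12 genes lowest in replicate 3 of both genotypes lie in the lower left and the 6 highest in both in the upper right, from Decr2 (-0.22 and -0.33) to Acads (0.28 and 0.32).

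Promoter windows of the same length were found in the RefSeq table (GRCm38.p6) for 25 of the 31 genes, 26 windows in all. The GC box GGGCGG, searched on both strands, occurred in 20 of 26 windows (76.9%), beside 35.7% of all 32851 windows in the table. The CCAAT box occurred in 10 (38.5%, against 37.4%), and the TATA box TATAAA in 0 (against 13.6%). The direct repeat of AGGTCA with a single base between the copies, the textbook site of PPAR-alpha with its partner RXR, was in 0 windows and in 0.0396% of all windows. A single AGGTCA was in 3 windows, those of Cpt1a, Acadm and Acadvl, or 11.5% against 16.3%. The E-box CACGTG was in 0 windows against 7.15%. The median G and C content was 60.5% against 52.67%. These are letters found in a short window and do not show binding.

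Other genes of the pathway were taken from lists chosen by function. Among 16 further enzymes of oxidation and ketone metabolism 2 rose and none fell, with a median log2 difference of 0.11, where 1.55% of all genes were called higher and 3.13% lower. Hsd17b10, a mitochondrial hydroxyacyl-CoA dehydrogenase for short and branched chains, rose 1.78-fold, from 10.89 ± 0.065 to 11.72 ± 0.049 (SD, n = 3, limma adjusted p = 0.000811). This exceeded every difference among the 31 genes. Bdh2, a cytosolic hydroxybutyrate dehydrogenase, rose 1.29-fold (adjusted p = 0.0333), a call lost whichever array was left out (adjusted p from 0.0668 to 0.128). Acad10, an acyl-CoA dehydrogenase, differed by 0.34 on the log2 scale (adjusted p = 0.0553) and passed with the replicate block (adjusted p = 0.0405) and with replicate 3 as a term (adjusted p = 0.0217). Phyh, which starts the breakdown of branched chains, had a log2 difference of 0.17 (adjusted p = 0.309).

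Of 4 genes of carnitine supply 0 passed in limma, and an unadjusted p under 0.05 was found for 2, where 17.2% of all genes had one. Aldh9a1, an enzyme of carnitine synthesis, had a log2 difference of 0.27 (adjusted p = 0.198) and passed with replicate 3 as a term (adjusted p = 0.0495). Slc22a5, the carnitine importer, had a log2 difference of -0.20 (adjusted p = 0.272). Tmlhe and Bbox1, the first and last enzymes of carnitine synthesis, had log2 differences of 0.09 and -0.02. None of 18 genes of peroxisome assembly and import passed either. The unadjusted p was under 0.05 for 6 of them, beside the same 17.2%, and their median was 0.09. Pxmp2, a channel of the peroxisomal membrane, had a log2 difference of 0.28 (adjusted p = 0.0834) and passed with replicate 3 as a term (adjusted p = 0.0387). Pxmp4, another protein of that membrane, had one of -0.29 (adjusted p = 0.121). The peroxisome assembly gene Pex16 had a log2 difference of 0.29 (adjusted p = 0.121) and passed with replicate 3 as a term (adjusted p = 0.0355). Its direction depended on the probe set, with -0.13 for its brightest plain probe set and 0.079 for the mean of all. Pex10, another assembly gene, had a log2 difference of 0.35 (adjusted p = 0.128) and passed with the replicate block (adjusted p = 0.0433).

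Of 22 PPAR-alpha target genes outside beta-oxidation, 4 rose and 5 fell, where 1.55% of all genes were called higher and 3.13% lower. Their median difference was -0.0039. Acot3, a peroxisomal acyl-CoA thioesterase, fell 2.34-fold (log2 difference -1.22, SE 0.079, limma adjusted p = 8.64e-05). The name of its probe set ends in _s_at, so it can also detect related transcripts. Pdk4, the kinase that shuts off pyruvate dehydrogenase in fasting, fell 1.94-fold (adjusted p = 0.00524), and Txnip, a glucose-responsive inhibitor of thioredoxin, fell 1.76-fold (adjusted p = 0.00158). Cd36, a fatty acid importer, rose 1.64-fold (adjusted p = 0.0130), a call that became an adjusted p of 0.0595 without wild-type replicate 2. Cd36 is also made by adipocytes and macrophages. Of 3 adipocyte markers tested 2 rose, with a mean log2 level of 4.79 to 5.02 on wild-type and 6.42 to 6.52 on null arrays, while Adipoq and Lep lay below the filter. Macrophage markers were lower, as given above, and the part of either cell type in the Cd36 value was not tested.

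Among 19 partners and coregulators of PPAR-alpha, 1 rose and 2 fell, beside 1.55% and 3.13% of all genes. Ncoa2 itself, the gene altered in these mice, is 1 of those that fell. Lpin1, a phosphatidate phosphatase that also acts as a coactivator of PPAR-alpha, fell 2.18-fold (log2 difference -1.13, SE 0.077, limma adjusted p = 0.000121). Esrra, an orphan nuclear receptor that drives mitochondrial genes, rose 1.32-fold (adjusted p = 0.0427), a call lost whichever array was left out (adjusted p from 0.0725 to 0.143). Nrip1, a corepressor of nuclear receptors, had a log2 difference of -0.35 (adjusted p = 0.0922). It passed as lower with the replicate block (adjusted p = 0.0456) and with replicate 3 as a term (adjusted p = 0.0276). With all its probe sets averaged, Nrip1 had a log2 difference of -0.14 and did not pass (adjusted p = 0.546). The median of this list was -0.07.

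**Figure D5:**
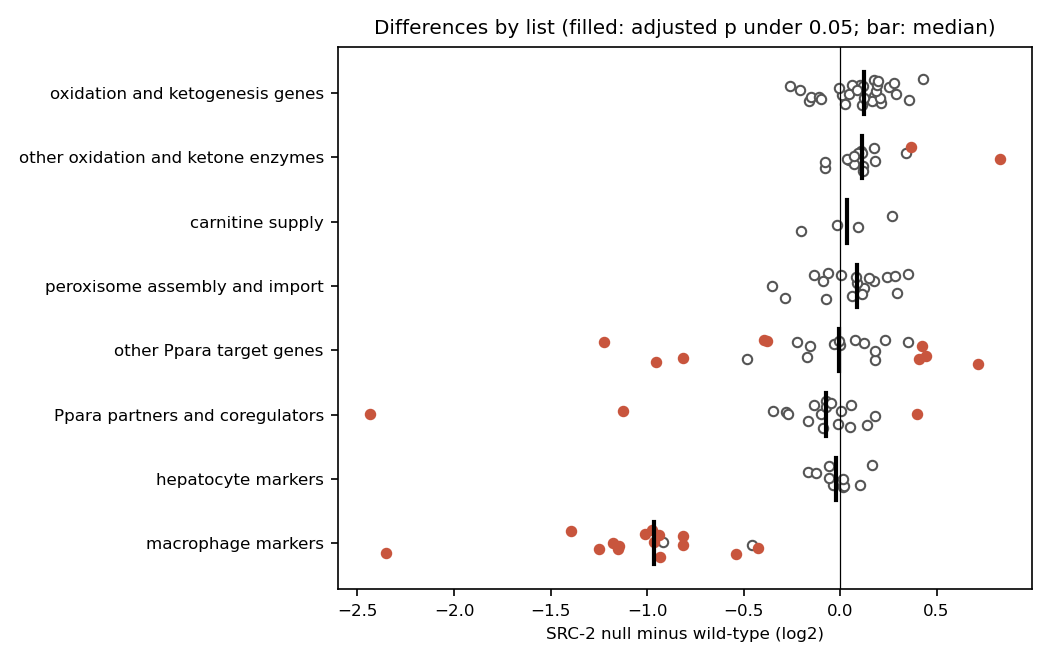
Log2 difference of SRC-2 null minus wild-type (horizontal axis) for the 31 oxidation and ketogenesis genes and for the tested genes of 7 other lists, with 1 point per gene, filled where the adjusted p was under 0.05, and a bar at the median. The 31 genes have no filled point and a median of 0.13, while 9 of 22 other PPAR-alpha target genes and 15 of 17 macrophage markers are filled.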

How the data were processed

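RNA from 3 wild-type and 3 SRC-2 null liver samples was measured on oligonucleotide arrays. The deposited values are log2 expression values of 45101 probe sets, made with RMA per the submitters' processing notes. Neither its version nor the chip description is given in the sources used here. RMA normalizes between arrays and compresses folds of dim probe sets. Array medians were 4.17 to 4.24, and the number of arrays limits the precision.

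Gene names came from the platform annotation, which can be old. Probe sets with 1 symbol were used, apart from 13 control probe sets. The brightest probe set stood for each of 18193 genes, and the 11894 genes whose mean reached 4.21 (the median probe set) were tested. Genotypes were compared with limma 3.58.1 (two-sided) in R 4.3.3, with calls made where the p after Benjamini-Hochberg adjustment was under 0.05. Single probe sets were fitted apart in the same way. The procedure was tested on simulated data with independent noise, without the replicate 3 pattern of these arrays. That test is not used as support for any call. Figures used matplotlib 3.10.9 in Python 3.11.15.

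The genes, lists and alternatives were chosen with earlier results of these data known. The text names all 31 genes, Ncoa2 and the 4 genes with the smallest p of each of 5 further pathway lists. Deviations from the group mean correlated between wild-type and null arrays of the same replicate number at 0.18, 0.20 and 0.52 over 11894 genes for replicates 1, 2 and 3, so the number was also fitted as a replicate block. Wild-type replicate 1 correlated at 0.21 with null replicate 2, so the numbers 1 and 2 are not set apart by the data. Alternatives were other filters, other probe set choices, other scalings, other variance models, the block, a term for replicate 3, and leaving out arrays.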

Additional observations from a re-analysis of the deposited data

How the results depend on the processing

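The number of genes called among the 31 depended on the processing, their direction less. Higher calls numbered 0 in the reported fit, 1 (Cpt2) with the stricter filter on dim genes and with quantile normalization again, and 1 (Cpt1a) in replicates 1 and 2 only. There were 2 (Cpt1a and Cpt2) with the mean of all probe sets, with array weights and with the replicate block. There were 3 with replicate 3 as a term (also Acaa1a) and 3 with an intensity trend and robust prior (also Ehhadh), and this last setting alone gave a lower call, 1 (Acaa1b). Leaving out 1 array gave 0 to 1 higher calls, 0 lower calls and a median of 0.11 to 0.17 (0.17 without wild-type replicate 2). Cpt1a and Cpt2 were each called in 7 of 17 alternatives, with adjusted p between 0.0145 and 0.219 and between 0.00819 and 0.187.

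Genes called over all genes, 556 in the reported fit, were 985 with array weights, 982 with replicate 3 as a term, 329 in replicates 1 and 2 only and 275 to 438 without 1 array. Single-gene probe sets called, 473, were 816 with the replicate block and 225 to 353 without 1 array. The replicate block changed no call of a named gene other than those of Cpt1a, Cpt2, Acad10, Pex10 and Nrip1.

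Signs changed, always without a call, in Pex16 (0.29 in the reported fit) and in 6 genes with smaller differences. With the mean of all probe sets Etfdh was -0.0054, Acaa2 0.013 and Bbox1 0.020. Pex16 was -0.13 with the brightest plain probe set, Hadh -0.0012 with arrays centred on their median, and Acaa2 0.016 with quantile normalization again. In replicates 1 and 2 only, Hadh was -0.0044 and Bbox1 0.0078. Leaving out 1 array gave ranges across 0, of -0.025 to 0.034 for Acaa2, -0.033 to 0.039 for Hadh, -0.056 to 0.044 for Bbox1, -0.032 to 0.27 for Tmlhe and -0.0036 to 0.12 for Vnn1. The cause of these changes was not tested. With 3 arrays a group, differences as small as most of these are hard to call, and a missed threshold does not show that a gene was unchanged.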
